A study of Homo sapiens with 11 samples.

Results

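Ribosome biogenesis is the stepwise making of the cell's ribosomes, which begins in the nucleolus. The data described here are RNA-seq levels of genes whose products take part in it, in a human endometrial cancer cell line, HEC50B. The genes were chosen by symbol from a list of 41 known ribosome biogenesis factors. A row was found in the count table for 40 of them, out of 57736 gene IDs, and all 40 were among the 13980 genes tested. BOP1, the remaining symbol, found no row and was not analysed here.

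RNA polymerase I transcribes ribosomal DNA into a long precursor RNA. Small nucleolar ribonucleoproteins (snoRNPs) of the box C/D kind guide ribose methylation of that precursor, and those of the box H/ACA kind guide pseudouridylation. Large assemblies of processing factors, RNA helicases and chaperones then fold, cleave and pack it with ribosomal proteins into the small and large subunits. In dividing and cancer cells these genes are known to be active together, and MYC is a known activator of many of them. KAT6A is a lysine acetyltransferase of histones, and WM1119 inhibits it. PPP2R1A encodes the scaffold subunit of the phosphatase PP2A.

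The cells formed 4 groups. R183W cells given WM1119 had 2 libraries and R183W cells given vehicle had 3. WT cells given WM1119 had 3 libraries and WT cells given vehicle had 3. Per the labels, R183W cells are parental HEC50B with PPP2R1A R183W, WT cells are their isogenic counterpart made wild type by CRISPR, and treatment with 50 µM WM1119 or vehicle lasted 4 days. The labels say neither whether the WT line is 1 clone nor whether the numbered libraries are separate cultures, so p-values measure only the spread between these libraries, which may be technical. Levels are CPM, that is, counts scaled to a common adjusted total. The adjusted total is a library's counts over the genes tested, multiplied by its TMM factor, edgeR's scaling between libraries. Differences are log2 differences from edgeR's quasi-likelihood test with Benjamini-Hochberg adjustment over all 13980 genes. Genes with an adjusted p under 0.05 are termed called.

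The 9 members called in any comparison had roles at nearly every step. NOP58 (ENSG00000055044) and FBL (ENSG00000105202) are core proteins of box C/D snoRNPs, and FBL is their methyltransferase. POLR1A (ENSG00000068654) is the largest subunit of RNA polymerase I. NPM1 (ENSG00000181163) is the nucleolar chaperone nucleophosmin, GNL3 (ENSG00000163938) is the nucleolar GTPase nucleostemin, and DDX21 (ENSG00000165732) is a nucleolar RNA helicase. UTP4 (ENSG00000141076) belongs to the early complex on the small subunit precursor, RRP9 (ENSG00000114767) is a protein of the U3 snoRNP, and WDR74 (ENSG00000133316) acts in large subunit assembly.

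Promoter sequence is shown for 5 of these called members, because the 2 motifs in capitals were more frequent at members' starts than at those of the genes tested as a whole. RRP9, DDX21 and NPM1 are the called members of smallest p that the promoter table holds, and it has no entry for NOP58. UTP4 and FBL were added after their values were seen, being called and holding an E-box. Each sequence runs from 250 bases before to 30 bases after the annotated start, in RefSeq's GRCh38.p14 build and on the gene's own strand. They are RRP9 on the minus strand of chr3:51941875-51942154, UTP4 on the plus strand of chr16:69132399-69132678, FBL on the minus strand of chr19:39846350-39846629, DDX21 on the plus strand of chr10:68955920-68956199 and NPM1 on the plus strand of chr5:171387599-171387878. Capitals mark the E-box CACGTG, which reads the same on both strands and is known to be bound by MYC and related factors, and CCGGAAG or its reverse complement CTTCCGG, a core known to be bound by ETS factors.
RRP9: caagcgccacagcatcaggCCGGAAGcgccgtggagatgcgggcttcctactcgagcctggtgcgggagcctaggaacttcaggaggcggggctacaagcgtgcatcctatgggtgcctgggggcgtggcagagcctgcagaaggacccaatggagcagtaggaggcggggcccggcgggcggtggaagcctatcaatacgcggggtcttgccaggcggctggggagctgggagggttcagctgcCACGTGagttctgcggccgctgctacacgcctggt
UTP4: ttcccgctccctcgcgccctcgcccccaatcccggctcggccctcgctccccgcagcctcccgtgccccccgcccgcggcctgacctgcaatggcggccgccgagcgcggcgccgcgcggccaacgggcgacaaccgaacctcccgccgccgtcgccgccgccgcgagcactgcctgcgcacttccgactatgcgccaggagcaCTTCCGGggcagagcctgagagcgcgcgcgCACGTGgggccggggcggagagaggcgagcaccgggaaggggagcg
FBL: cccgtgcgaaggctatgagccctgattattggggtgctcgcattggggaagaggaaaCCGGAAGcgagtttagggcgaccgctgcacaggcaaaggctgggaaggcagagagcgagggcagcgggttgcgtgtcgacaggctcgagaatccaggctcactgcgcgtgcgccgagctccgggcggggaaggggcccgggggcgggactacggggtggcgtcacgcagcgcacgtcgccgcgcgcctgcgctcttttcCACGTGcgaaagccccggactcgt
DDX21: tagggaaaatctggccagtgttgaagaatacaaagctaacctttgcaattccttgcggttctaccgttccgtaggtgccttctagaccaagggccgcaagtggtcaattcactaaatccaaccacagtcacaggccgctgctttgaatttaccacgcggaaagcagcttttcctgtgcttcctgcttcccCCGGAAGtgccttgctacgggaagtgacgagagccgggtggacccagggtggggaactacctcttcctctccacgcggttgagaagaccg
NPM1: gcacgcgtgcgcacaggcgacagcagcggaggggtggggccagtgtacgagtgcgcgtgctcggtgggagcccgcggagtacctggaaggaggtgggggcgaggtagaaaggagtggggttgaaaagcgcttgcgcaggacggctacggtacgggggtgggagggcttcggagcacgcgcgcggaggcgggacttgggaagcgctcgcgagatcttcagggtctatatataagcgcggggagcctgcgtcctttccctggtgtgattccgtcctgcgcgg
With the start as base 1 and the base before it as -1, the E-box begins at -5 in RRP9, -16 in UTP4 and 7 in FBL. The ETS core begins at -231 in RRP9, -46 in UTP4, -193 in FBL and -60 in DDX21. NPM1 holds neither motif in this window.

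Over windows of 250 bases before to 50 after the start, the E-box was found in 11 of the 34 members that the promoter table holds (32.4%). Those members were FBL, NOP10, MYBBP1A, NOP14, WDR43, UTP4, UTP20, RRP9, BYSL, NOP2 and PES1, and NOP10 held it at 2 places. It was found in 27 of 93 other ribosome biogenesis genes (29.03%), in 1047 of 10122 genes tested (10.3%) and in 2548 of all 35116 promoters (7.26%). The ETS core, a motif added after the data were seen, was found in 13 of 34 members (38.2%), 39 of 93 other ribosome biogenesis genes (41.9%), 1960 of 10122 genes tested (19.4%) and 3603 of 35116 promoters (10.3%). The E-box and the ETS core cannot overlap each other, and FBL, NOP10, UTP4 and RRP9 held both. Matches to CCGGAAG and CTTCCGG overlapped in POLR1C and NOP16.

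Another shared feature lies inside the genes. In GENCODE release 29, 9 of the 40 members (22.5%) hold a small nucleolar RNA gene on the same strand, against 217 of 11814 protein-coding genes tested (1.84%). The hosts are NOP56, NOP58, DKC1, POLR1C, NCL, GNL3, WDR43, TSR1 and PPAN. Reads from such an RNA could enter its host's count where their exons overlap, and this was not tested.

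Levels per length spanned a wide range. In mean CPM per kilobase of merged exon over the 11 libraries, NPM1 stood highest at 896, ahead of FBL at 300.1, NCL, the nucleolar RNA-binding protein nucleolin, at 266 and DDX21 at 168. The median member had 13.6, and UTP15, of the same early complex as UTP4, was lowest at 1.31. NPM1 and NCL thus held 27.6 to 38.5% and 14.9 to 24.0% of the members' summed CPM in a library. NPM1 has many near-identical pseudogenes, so how its reads were shared out is uncertain.

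The smallest total, 2609922 counts, was that of WT WM1119 library 3 and the largest, 6065149 counts, that of R183W vehicle library 1, and 3 counts equalled 0.495 to 1.24 CPM. The smallest count of a member was 16, for UTP15 in WT WM1119 library 3. That library stood apart from its group mates. The median absolute distance of the 40 members from the mean of the library's group mates was 0.443 on the log2 scale, against 0.0881 to 0.237 in the other 10 libraries, and 19 members were off by more than 0.5. NOP10 and NOP16 lay lowest there, at -1.82 and -1.58, and RRP12 and PES1 highest, at 0.82 and 0.80. Results for the WT WM1119 group are therefore also given without that library. Of the markers of the cell line, the epithelial keratins KRT8 and KRT18, EPCAM and the lineage factor PAX8 were present in all libraries, whereas CDH1, KRT19, ESR1 and PGR, and of other cell types PTPRC, CD3E and VWF, were at or near 0 CPM, and CD68 had 2.57 to 10.9 CPM. PPP2R1A had 26.9 to 36.5 CPM in R183W libraries and 20.1 to 30.3 CPM in WT libraries, and these counts do not show the edited base. KAT6A had 152 to 200.5 CPM in R183W libraries and 123 to 284 CPM in WT libraries.

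**Figure D1:**
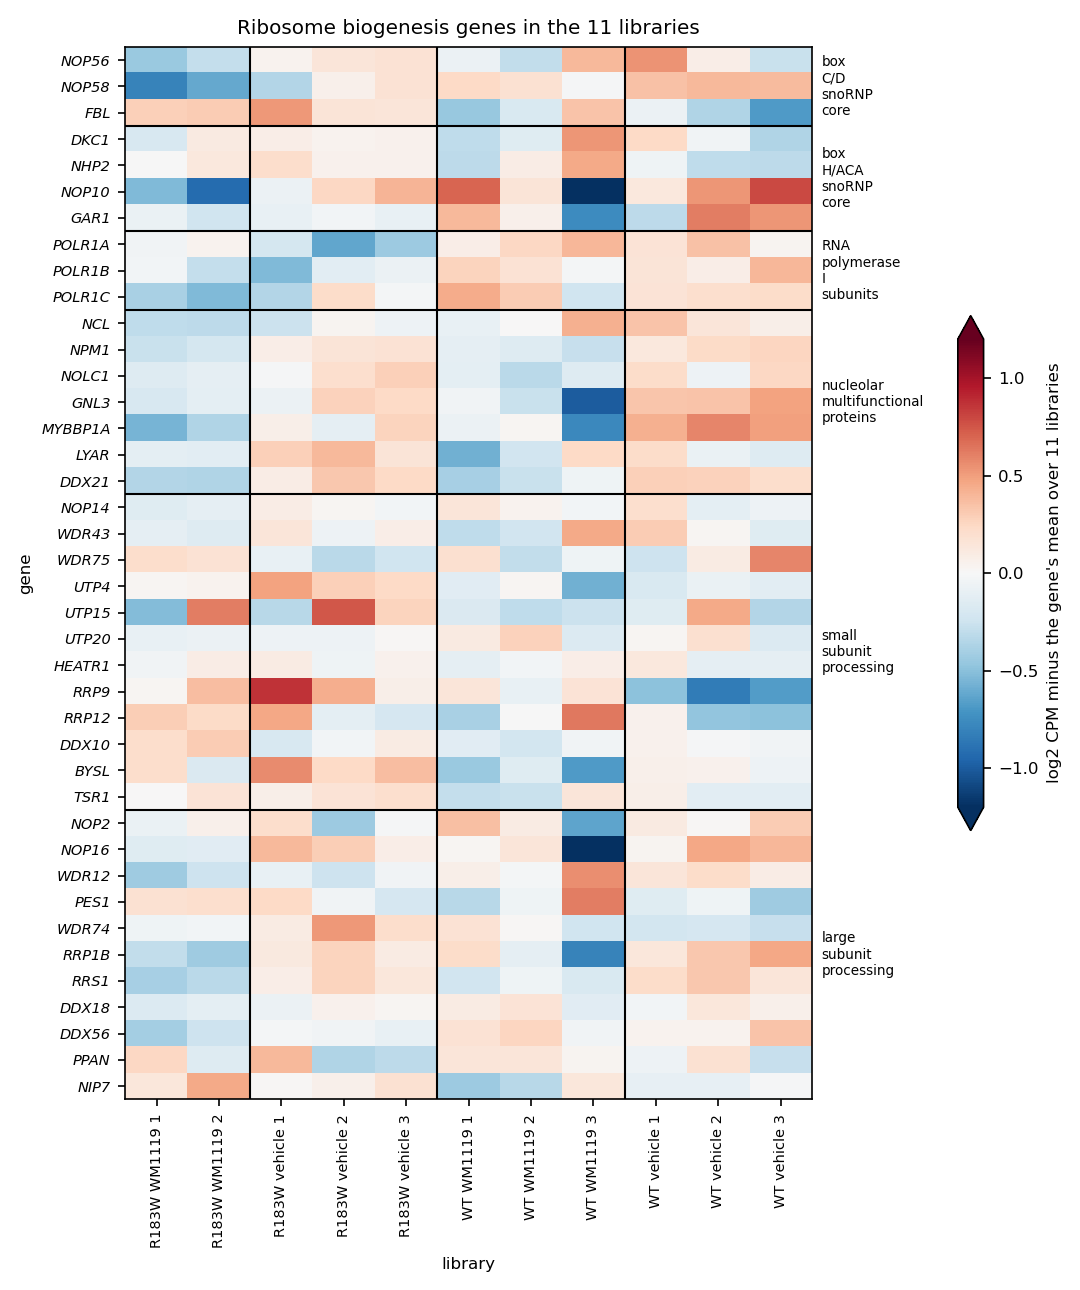
Log2 CPM of the 40 genes (rows, by role) in the 11 libraries (columns, by group), each minus the gene's mean over the 11 libraries. Both R183W WM1119 libraries lie low for the 7 nucleolar multifunctional proteins, POLR1A lies low in R183W vehicle libraries, and WT WM1119 library 3 departs from its group mates at NOP10 and NOP16.

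The genes fell into 6 roles. The box C/D core held NOP56, NOP58 and FBL, and the box H/ACA core held DKC1, NHP2, NOP10 and GAR1. RNA polymerase I was represented by POLR1A, POLR1B and POLR1C. The nucleolar multifunctional proteins were NCL, NPM1, NOLC1, GNL3, MYBBP1A, LYAR and DDX21. Small subunit processing had 12 genes tested and large subunit processing 11. The roles were drawn up with earlier results of these data known, so counts by role are descriptions.

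The first comparison asked what 4 days of WM1119 did to these genes in R183W cells. The summed level of the 40 genes was 8562 and 8838 CPM in the R183W WM1119 libraries, against 10199, 10725 and 10635 CPM in R183W vehicle libraries. The groups did not overlap, and the WM1119 mean was 82.7% of the vehicle mean (8700 ± 195 CPM, n = 2, against 10520 ± 282 CPM, SD, n = 3). With NPM1 and NCL left out, the sums were 4262 and 4434 CPM under WM1119 and 5089, 5080 and 5062 CPM under vehicle, again without overlap. In bulk RNA, fewer cells expressing a gene and less RNA per cell cannot be told apart.

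**Figure D2:**
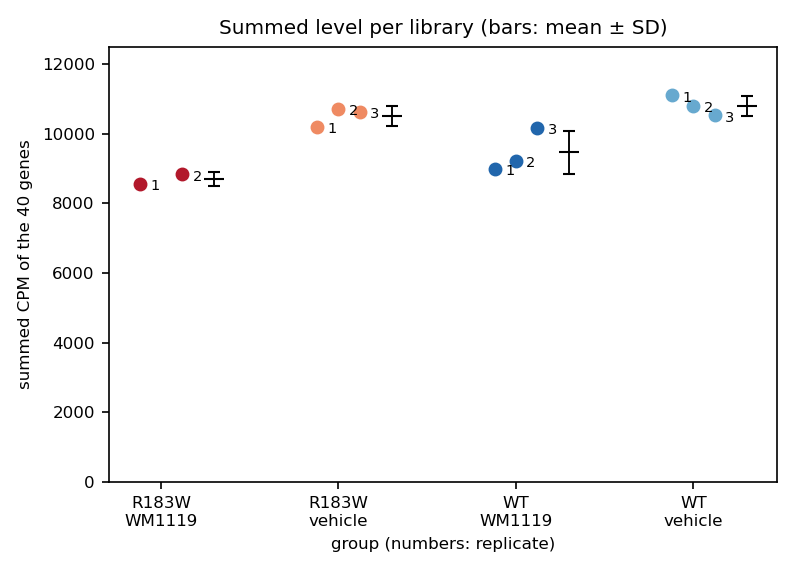
Summed CPM of the 40 genes in each library, with the mean and SD of each group beside the points. Both WM1119 groups lie lower on average than the vehicle group of their genotype, and WT WM1119 library 3, at 10184 CPM, is the highest WM1119 library.

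Of the 40 genes, 2 were called lower and 0 higher with WM1119 in R183W cells, where 2.65% of all genes tested were called lower and 1.99% higher (4.64% in either direction). Of members, 30 of 40 (75%) had a negative difference, with a median log2 difference of -0.20, against 50.1% and a median of -0.0011 over all genes tested. Single members ran from -0.91 to 0.41. The lowest vehicle library exceeded both WM1119 libraries for 22 members, a pattern that 23.6% of all genes showed. The reverse held for 3 members, POLR1A, WDR75 and DDX10, where the share of all genes was 23.2%. At an unadjusted p under 0.05 there were 7 members lower and 1 higher (9.98% and 9.61% of all genes). DESeq2 and limma called 0 members higher.

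NOP58 had 167 and 189 CPM in R183W WM1119 libraries, against 228, 303 and 329 CPM in R183W vehicle libraries. Every WM1119 library lay below every vehicle library, and the vehicle libraries were widely spread. NOP58 fell by 0.69 on the log2 scale (SE 0.16, edgeR adjusted p = 0.0253). DDX21 had 648 and 645 CPM under WM1119, against 883, 1039 and 981 CPM under vehicle. The groups were well separated, and DDX21 fell by 0.58 on the log2 scale (SE 0.13, edgeR adjusted p = 0.0214). Both calls ended when any 1 of 4 libraries was left out, with edgeR adjusted p for NOP58 and DDX21 of 0.236 and 0.149 without library 1 of the R183W WM1119 group, 0.156 and 0.175 without its library 2, 0.0993 and 0.0958 without library 2 of the R183W vehicle group, and 0.111 and 0.0797 without its library 3. Without WT WM1119 library 3, which is in neither group but enters the common spread, 6 members were called lower. The share of all genes called lower in that fit is not given, so the rise cannot be called particular to the members.

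DDX21 is 1 of 7 nucleolar multifunctional proteins, and all 7 had a negative difference with no overlap between groups and a median of -0.37. Of all genes tested, 23.6% were lower without overlap. NPM1 had 2825.5 and 2934 CPM under WM1119, against 3589.5, 3776 and 3828 CPM under vehicle, and its log2 difference of -0.37 (SE 0.11) was not called (edgeR adjusted p = 0.0616). NCL had 1474 and 1470 CPM, against 1521, 1869 and 1745 CPM, a log2 difference of -0.22 that was not called (edgeR adjusted p = 0.474). The summed level of the 7 was 5275 ± 77.8 CPM (SD, n = 2) under WM1119 and 6761 ± 392 CPM (SD, n = 3) under vehicle. The difference in that sum made up most of the difference in the total.

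Among the box C/D proteins, NOP56, the partner of NOP58, had 77.5 and 86.4 CPM under WM1119, against 109, 117 and 119 CPM under vehicle, without overlap, but its log2 difference of -0.49 was not called (edgeR adjusted p = 0.258). FBL, the methyltransferase, overlapped, with 773 and 779 CPM against 910.1, 705 and 698 CPM. The box H/ACA members all had a negative difference, but the median was -0.09, and DKC1, the pseudouridine synthase, had 255 and 315 CPM under WM1119, against 310, 300.5 and 302 CPM under vehicle, with overlap. NOP10, a small protein of the same particle, had 28.6 and 21.7 CPM, against 39.3, 49.0 and 54.5 CPM. Its log2 difference of -0.91 (SE 0.41) was the most negative of the 40, but it was not called (edgeR adjusted p = 0.240). Small subunit members had a median of -0.10, with NOP14, WDR43, UTP4, UTP20 and BYSL lower without overlap. The most abundant of them, WDR43, had 277 and 270 CPM against 330, 287 and 316 CPM. For UTP20 the groups nearly touched, at 19.92 and 20.24 CPM against 20.29, 20.33 and 21.49 CPM, a log2 difference of -0.04. Large subunit members had a median of -0.21, with NOP16, WDR74, RRP1B, RRS1, DDX18 and DDX56 lower without overlap. RRS1, a partner of RPF2 in large subunit assembly, had 33.1 and 34.7 CPM, against 46.2, 52.4 and 48.1 CPM, and its log2 difference of -0.53 was not called (edgeR adjusted p = 0.0800). The helicase DDX18 had 350.1 and 363 CPM against 375, 407 and 401 CPM. For RNA polymerase I, POLR1A had 24.96 and 26.6 CPM under WM1119, against 22.3, 16.7 and 19.1 CPM under vehicle, which was higher without overlap but not called (log2 difference 0.41, edgeR adjusted p = 0.281). POLR1B, its core partner subunit, had 34.1 and 28.7 CPM, against 24.1, 31.9 and 33.3 CPM, and overlapped.

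The same comparison was made in WT cells. The summed level was 9006, 9218 and 10184 CPM in WT WM1119 libraries 1, 2 and 3, against 11108, 10804 and 10533 CPM in WT vehicle libraries. No WM1119 library reached the lowest vehicle library, and the mean was 87.6% of the vehicle mean (9469 ± 628 CPM against 10815 ± 288 CPM, SD, n = 3 each). Without library 3 the WM1119 mean was 9112 ± 150.3 CPM. With NPM1 and NCL left out, the sums overlapped, at 4122, 4333 and 4922 CPM under WM1119 and 5078, 4808 and 4561 CPM under vehicle.

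With WM1119 in WT cells, 3 members were called lower and 0 higher, where 2.53% of all genes tested were called lower and 2.33% higher (4.86% in either direction). The difference was negative for 26 of 40 members (65.0%), with a median of -0.07, against 50.4% and a median of -0.0031 over all genes tested. Single members ran from -0.75 to 0.73. Groups did not overlap for 9 members lower (11.6% of all genes) and for RRP9 alone higher (1 member, where 10.7% of all genes were). Without WT WM1119 library 3 these counts were 15 (17.9% of all genes) and 3 (16.6% of all genes). At an unadjusted p under 0.05 there were 7 members lower and 1 higher (9.94% and 11.4% of all genes). DESeq2 and limma called 0 members higher.

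DDX21 had 628, 688 and 797 CPM in WT WM1119 libraries, against 1011, 1005.5 and 960.4 CPM in WT vehicle libraries. All WM1119 libraries were lower, with library 3 nearest to the vehicle group, and DDX21 fell by 0.49 on the log2 scale (SE 0.11, edgeR adjusted p = 0.0255). NPM1 had 3166, 3063 and 2816 CPM, against 3715, 3981 and 4057 CPM. The groups were again separate, and NPM1 fell by 0.38 on the log2 scale (SE 0.093, edgeR adjusted p = 0.0348). GNL3 had 89.0, 76.3 and 45.8 CPM, against 116, 116 and 128 CPM. GNL3 overlaps exons of GLT8D1 on the opposite strand, so its count is uncertain. Library 3 was the lowest of all for GNL3, which fell by 0.75 on the log2 scale (SE 0.19, edgeR adjusted p = 0.0406).

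All 3 calls held without WT WM1119 library 3. The DDX21 call ended without WT WM1119 library 2 (edgeR adjusted p = 0.0699), WT vehicle library 2 (0.0838) or WT vehicle library 3 (0.0700). NPM1 kept its call only when the library left out was R183W vehicle library 1, WT WM1119 library 1 or 3, or WT vehicle library 1, and without any of the other 7 its edgeR adjusted p was 0.0605 to 0.136. GNL3 kept its call only without WT WM1119 library 1 or 3, and without any of the other 9 its edgeR adjusted p was 0.0514 to 0.138. In a fit of the WT libraries alone none of the 3 was called, with edgeR adjusted p of 0.164 for NPM1, 0.153 for GNL3 and 0.118 for DDX21.

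As in R183W cells, all 7 nucleolar multifunctional proteins had a negative difference in WT cells, with a median of -0.38. Of these, 5 did not overlap, where 11.6% of all genes were lower without overlap. Their sum was 5976 ± 296 CPM under WM1119 and 7348 ± 58.5 CPM under vehicle (SD, n = 3 each). MYBBP1A, a nucleolar protein that binds MYB and other transcription factors, had 18.9, 20.04 and 11.6 CPM, against 26.6, 29.7 and 27.8 CPM, and its log2 difference of -0.71 (SE 0.21) was not called (edgeR adjusted p = 0.0705). In R183W cells MYBBP1A had 13.4 and 15.4 CPM under WM1119 and 20.8, 18.4 and 23.7 CPM under vehicle, and was not called either (edgeR adjusted p = 0.239). NCL, in contrast to NPM1, overlapped in WT cells, with 1718, 1822 and 2446 CPM under WM1119 and 2315, 2015 and 1915 CPM under vehicle. NCL in WT WM1119 library 3 was the highest value of that gene in the 11 libraries.

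Medians of the other roles were close to 0 in WT cells, at -0.12 for the box C/D core, -0.11 for the box H/ACA core, 0.02 for RNA polymerase I, -0.07 for small subunit and -0.0091 for large subunit members. Some abundant members were highest in library 3. DKC1 had 236, 265 and 422 CPM under WM1119, against 344, 284 and 227 CPM under vehicle, and WDR43 had 242, 256 and 410 CPM, against 369, 305 and 270 CPM. For both genes library 3 was the highest of the 11 and the groups overlapped. DDX18 also overlapped, with 421, 440 and 357 CPM under WM1119, against 384, 431 and 410 CPM under vehicle, and so did POLR1B, with 42.0, 39.3 and 34.3 CPM, against 38.8, 36.8 and 46.1 CPM.

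Set side by side, the inhibitor responses in R183W and WT cells use no library in common. Of the 40 members, 21 (52.5%) were lower with WM1119 in both genotypes, 5 were higher in both, 9 were lower in R183W and higher in WT cells, and 5 were the other way round. Among all genes tested, 33.0% were lower in both. Across the 40 members, which are not independent replicates, Pearson's r between the log2 differences was 0.46 and Spearman's rho 0.54, against 0.38 and 0.41 across all genes tested. These are descriptions, and DDX21 was the only member called in both genotypes.

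**Figure D3:**
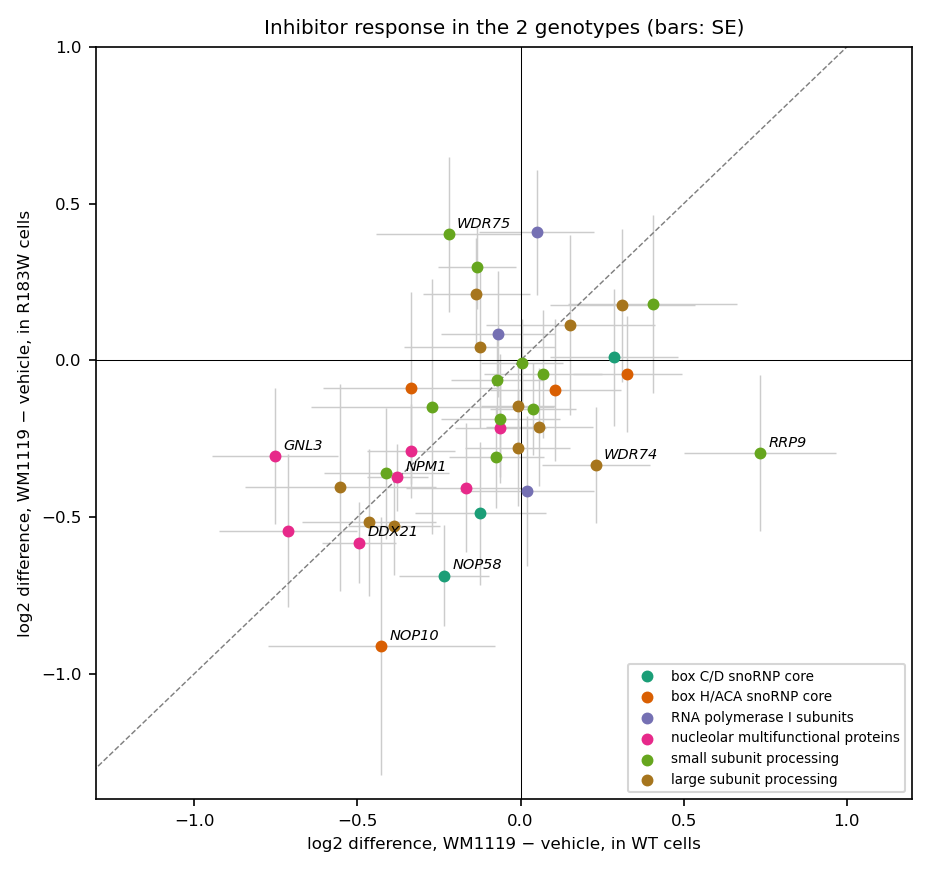
Log2 difference with WM1119 in WT cells (x axis) against that in R183W cells (y axis) for the 40 genes, coloured by role, with grey bars for the SE and a dashed line where both are equal. Lower left holds the 21 members lower in both genotypes, and RRP9 lies farthest below the line.

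The difference between the inhibitor responses was tested as an interaction, the R183W response minus the WT response. No member was called, where 0.286% of all genes were. At an unadjusted p under 0.05 there were 1 member with a positive and 2 with a negative interaction (4.10% and 5.20% of all genes), and DESeq2 and limma also called 0. The median interaction of the members was -0.12, against -0.0087 over all genes tested, and 25 of 40 were negative (62.5%). These tests do not show that the 2 responses were alike.

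RRP9 had the most negative interaction, at -1.03 (SE 0.34, edgeR adjusted p = 0.309). RRP9 had 19.4 and 24.8 CPM in R183W WM1119 libraries and 35.0, 25.9 and 20.1 CPM in R183W vehicle libraries, which overlapped. In WT cells it had 21.1, 18.0 and 21.5 CPM under WM1119, against 13.6, 10.7 and 12.04 CPM under vehicle, with every WM1119 library higher. That difference of 0.73 (SE 0.23) was not called (edgeR adjusted p = 0.0873). In the next 3 by size the spread was wide. WDR75, of the same early complex as UTP4, had an interaction of 0.62 (SE 0.33, edgeR adjusted p = 0.620). It had 25.2 and 24.5 CPM under WM1119 and 20.5, 17.3 and 18.5 CPM under vehicle in R183W cells. In WT cells it had 24.8, 17.7 and 21.1 CPM under WM1119 and 18.3, 23.3 and 32.6 CPM under vehicle. The R183W groups were apart and the WT groups overlapped. WDR74 had an interaction of -0.57 (SE 0.25, edgeR adjusted p = 0.5002). NOP10 had one of -0.48 (SE 0.54, edgeR adjusted p = 0.853), and its WT WM1119 libraries ran over 66.8, 45.7 and 15.3 CPM, against 44.8, 59.5 and 71.5 CPM in WT vehicle libraries.

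**Figure D4:**
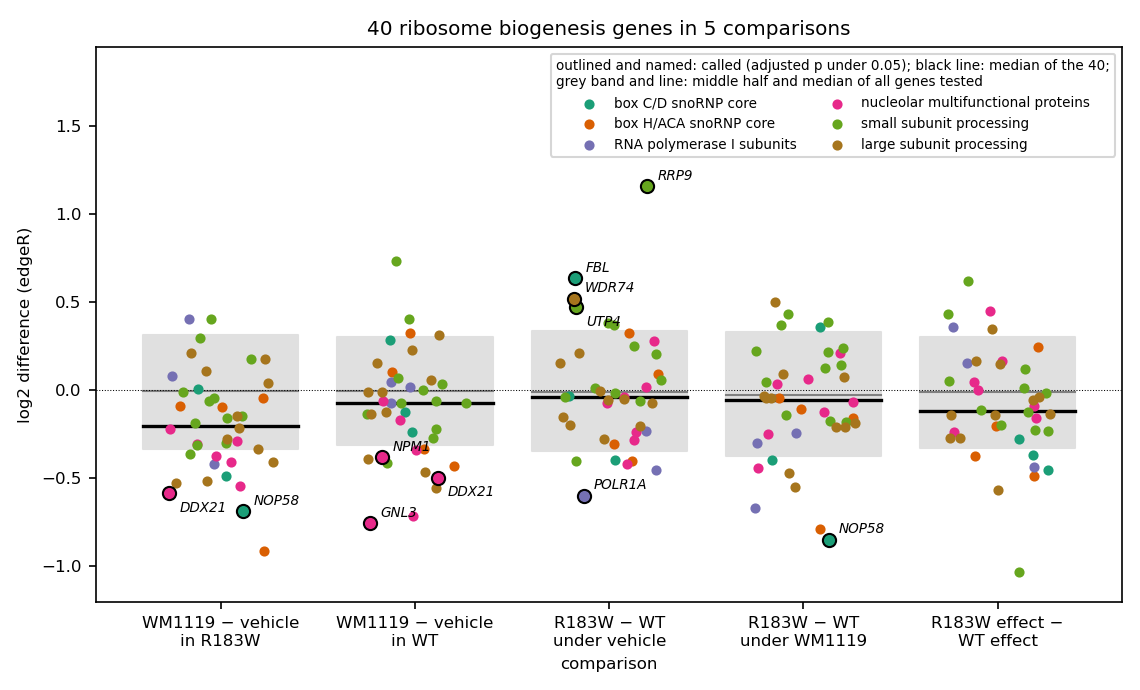
Log2 differences of the 40 genes (points, coloured by role) in the 4 comparisons and the interaction, with the members' median as a black line and the median and middle part of all genes tested in grey. Outlined and named points are the called members, from RRP9 at 1.16 under vehicle to NOP58 at -0.85 under WM1119, both R183W less WT.

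The genotype comparison under vehicle asked how R183W cells differed from their WT counterpart without the inhibitor. The summed levels were close, with a R183W mean at 97.3% of the WT mean, and the groups overlapped. Single genes differed in both directions. Of the 40 members, 4 were called higher and 1 lower in R183W cells, where 6.82% of all genes tested were called higher and 6.17% lower (13.0% in either direction). Counts of members without overlap were 8 higher and 8 lower, where 19.3% and 18.5% of all genes were. At an unadjusted p under 0.05 there were 4 members higher and 3 lower (14.0% and 13.5% of all genes). The median log2 difference was -0.04, against -0.0081 over all genes tested.

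RRP9 was the largest of these, with 35.0, 25.9 and 20.1 CPM in R183W vehicle libraries, against 13.6, 10.7 and 12.04 CPM in WT vehicle libraries. Every R183W library was higher, though R183W libraries varied more, and RRP9 rose by 1.16 on the log2 scale (SE 0.23, edgeR adjusted p = 0.00411). FBL had 910.1, 705 and 698 CPM, against 601, 492 and 396 CPM. Its groups were separate, and FBL rose by 0.64 on the log2 scale (SE 0.20, edgeR adjusted p = 0.0479). WDR74 had 40.9, 54.8 and 44.2 CPM, against 32.8, 33.2 and 31.4 CPM. R183W libraries were all higher, and WDR74 rose by 0.52 on the log2 scale (SE 0.16, edgeR adjusted p = 0.0495). UTP4 had 278.7, 244 and 236 CPM, against 175, 188 and 183.5 CPM. The groups were far apart for their spread, and UTP4 rose by 0.47 on the log2 scale (SE 0.14, edgeR adjusted p = 0.0459).

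POLR1A was the member called lower. It had 22.3, 16.7 and 19.1 CPM in R183W vehicle libraries, against 28.8, 33.0 and 26.3 CPM in WT vehicle libraries, without overlap, and fell by 0.60 on the log2 scale (SE 0.18, edgeR adjusted p = 0.0397). All 3 RNA polymerase I subunits had a negative difference, with a median of -0.45. POLR1B had 24.1, 31.9 and 33.3 CPM, against 38.8, 36.8 and 46.1 CPM, also without overlap, and its log2 difference of -0.45 was not called (edgeR adjusted p = 0.109). POLR1C, a subunit shared with RNA polymerase III, had 18.8, 27.8 and 23.5 CPM, against 26.8, 27.4 and 27.8 CPM, and overlapped. The summed level of the 3 subunits was 72.5 ± 6.33 CPM in R183W vehicle libraries and 97.3 ± 2.96 CPM in WT vehicle libraries (SD, n = 3 each).

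RRP9 kept its call whichever of the 11 libraries was left out, with edgeR adjusted p of 0.000959 to 0.0263. The other 4 calls lay near the threshold. GENCODE places exons of other genes over those of 2 of them, CHTF8 on the opposite strand of UTP4 and RNU2-2P on the strand of WDR74, so these counts may hold reads of both, which was not tested. FBL kept its call only without WT WM1119 library 1 or 3 or WT vehicle library 1, UTP4 only without WT WM1119 library 1, 2 or 3, and POLR1A and WDR74 only without WT WM1119 library 1 or 3. Without any other library the edgeR adjusted p was 0.0543 to 0.191 for FBL, 0.0746 to 0.179 for UTP4, 0.0533 to 0.166 for POLR1A and 0.0624 to 0.206 for WDR74. WDR74 also lost its call with RLE size factors (0.0511), upper quartile factors (0.0553), library totals alone (0.0513) or no filter on low counts (0.0856), UTP4 with upper quartile factors (0.0549), and POLR1A with no filter (0.0821).

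Among the remaining roles, small subunit members had a median of 0.13 with 4 of 12 higher without overlap, namely UTP4, RRP9, BYSL and TSR1. Of all genes tested, 19.3% were higher without overlap. BYSL, or bystin, had 36.1, 28.9 and 31.6 CPM in R183W vehicle libraries, against 25.4, 25.3 and 23.5 CPM in WT vehicle libraries. TSR1, a late assembly factor, had 102, 109 and 112 CPM, against 102, 89.0 and 89.4 CPM, so the groups nearly touched. Neither was called. Nucleolar multifunctional proteins had a median of -0.07, and NPM1 overlapped between genotypes.

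The last comparison set R183W WM1119 libraries against WT WM1119 libraries. The summed level of the R183W group was 91.9% of the WT group's, with no overlap. Of the 40 members, 1 was called lower, NOP58, and 0 were called higher, where 3.92% of all genes tested were called lower and 4.64% higher (8.56% in either direction). Groups did not overlap for 9 members lower and 2 higher (16.3% and 18.5% of all genes). Without WT WM1119 library 3 these counts were 20 and 8 (30.5% and 31.2% of all genes), and 3 members were called lower and 3 higher. The shares of all genes called in each direction in that fit are not given. At an unadjusted p under 0.05 there were 5 members lower and 2 higher (11.8% and 11.9% of all genes), and DESeq2 and limma called 0 members higher.

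NOP58 had 167 and 189 CPM in R183W WM1119 libraries, against 343, 330 and 287 CPM in WT WM1119 libraries. The groups were far apart, and NOP58 fell by 0.85 on the log2 scale (SE 0.16, edgeR adjusted p = 0.00533). This call ended only without R183W WM1119 library 1 (edgeR adjusted p = 0.0898). Under vehicle NOP58 had 228, 303 and 329 CPM in R183W libraries, against 371, 381 and 378 CPM in WT libraries, lower without overlap, and its log2 difference of -0.39 was not called (edgeR adjusted p = 0.0801). NOP58 was thus lowest in R183W cells under WM1119 and highest in WT cells under vehicle, at group means of 178 ± 16.0 CPM (SD, n = 2) and 377 ± 5.28 CPM (SD, n = 3). R183W vehicle at 287 ± 52.1 CPM and WT WM1119 at 320 ± 29.4 CPM (SD, n = 3 each) lay between and did not differ beyond their spread. The interaction for NOP58 was -0.45 and was not called (edgeR adjusted p = 0.537).

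All 3 RNA polymerase I subunits had a negative difference in R183W cells under WM1119 too, with no overlap for any of the 3 and a median of -0.30, and none was called. Of all genes tested, 16.3% were lower without overlap in this comparison. POLR1A had 24.96 and 26.6 CPM in R183W WM1119 libraries, against 27.2, 30.6 and 33.9 CPM in WT WM1119 libraries. POLR1B had 34.1 and 28.7 CPM, against 42.0, 39.3 and 34.3 CPM, and POLR1C had 18.2 and 16.6 CPM, against 32.5, 29.5 and 20.2 CPM. The groups nearly met for POLR1A and POLR1B. The summed level of the 3 subunits was 74.6 ± 3.81 CPM (SD, n = 2) in R183W WM1119 libraries and 96.5 ± 7.13 CPM (SD, n = 3) in WT WM1119 libraries, close to the values of the same genotypes under vehicle.

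None of the 4 genes called higher in R183W cells under vehicle was called under WM1119. RRP9 had 19.4 and 24.8 CPM in R183W WM1119 libraries, against 21.1, 18.0 and 21.5 CPM in WT WM1119 libraries. FBL had 773 and 779 CPM, against 460.4, 556 and 801 CPM, and the highest of these was library 3. WDR74 had 36.7 and 37.1 CPM, against 42.8, 38.5 and 32.2 CPM. All 3 overlapped. UTP4 had 203 and 206 CPM, against 182, 202 and 134 CPM, so R183W libraries were higher by a narrow margin, and its log2 difference of 0.24 was not called (edgeR adjusted p = 0.405).

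**Figure D5:**
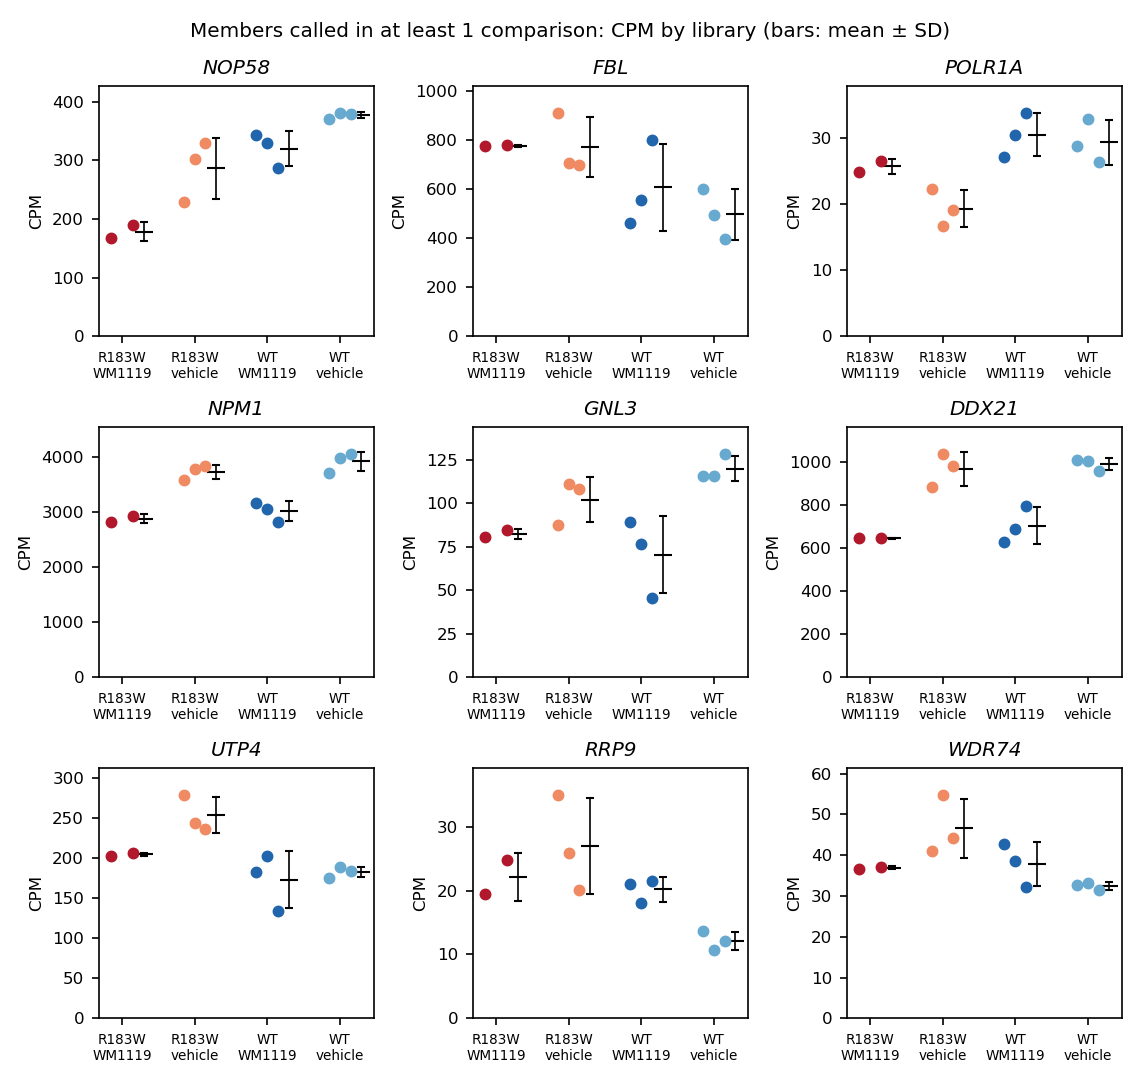
CPM of the 9 members called in at least 1 comparison, by library, with the mean and SD of each group beside the points and each y axis starting at 0. NOP58 and DDX21 lie lower under WM1119, RRP9, FBL, UTP4 and WDR74 lie higher in R183W vehicle than in WT vehicle libraries, and POLR1A lies lowest in R183W vehicle libraries.

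By motif, 3 of the 4 members called higher in R183W cells under vehicle (FBL, UTP4 and RRP9) held the E-box, and all 4 held the ETS core, a split read after the calls were known. Of the 34 members with a promoter sequence, 11 held the E-box and 13 the ETS core. POLR1A, called lower in the same comparison, held neither. The median log2 difference in that comparison was 0.01 for the 11 members with an E-box and -0.04 for the 23 without, and -0.04 for the 13 with an ETS core and -0.03 for the 21 without. With WM1119 in R183W cells the medians were -0.19 with and -0.15 without an E-box, and -0.30 with and -0.15 without an ETS core. With WM1119 in WT cells they were -0.06 with and -0.07 without an E-box, and -0.07 with and -0.06 without an ETS core. Between genotypes under WM1119 they were -0.03 with and -0.05 without an E-box, and -0.04 with and -0.05 without an ETS core. These medians are descriptions, and no test of them was made. The snoRNA hosts had medians of -0.22 and -0.06 with WM1119 in R183W and WT cells, against -0.16 and -0.13 for the other 31 members.

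MYC itself was low in these cells. It had 1.2 and 1.8 CPM in R183W WM1119 libraries and 3.13, 2.14 and 2.03 CPM in R183W vehicle libraries. In WT cells it had 5.27, 2.83 and 0 CPM under WM1119, the last being a count of 0 that allows up to 1.24 CPM, and 4.69, 10.3 and 10.2 CPM under vehicle. R183W vehicle libraries were all below WT vehicle libraries, but the difference of -1.77 (SE 0.60) was not called (edgeR adjusted p = 0.0713), and nor were the inhibitor differences of -0.72 in R183W and -1.499 in WT cells (edgeR adjusted p = 0.687 and 0.176). The part of MYC in the members' levels was not tested.

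A wider list of 101 other ribosome biogenesis genes tested, among them further polymerase I, small and large subunit factors and the RNA exosome, gave smaller medians in the inhibitor comparisons. With WM1119 in R183W cells 1 was called lower and 0 higher, where 2.65% of all genes were called lower and 1.99% higher, with a median of -0.12. The called gene was TEX10, of the large subunit pathway (log2 difference -0.73, edgeR adjusted p = 0.0494). DESeq2 and limma counts for this list were not computed, and at an unadjusted p under 0.05 there were 11 lower and 2 higher (9.98% and 9.61% of all genes). With WM1119 in WT cells 2 were called higher and 1 lower, where 2.33% and 2.53% of all genes were, with a median of -0.03. The counts at an unadjusted p under 0.05 were 8 higher and 12 lower (11.4% and 9.94% of all genes). These called shares of the 101 did not exceed those of all genes. TBL3 and UTP11, both small subunit processome proteins, rose by 1.34 and 0.59 on the log2 scale (edgeR adjusted p = 0.0331 and 0.0403), and RPF2, which acts in large subunit assembly, fell by 0.72 (edgeR adjusted p = 0.0136).

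Between genotypes under vehicle, 4 of the 101 were called higher and 4 lower, where 6.82% and 6.17% of all genes were, with a median of 0.04. With an unadjusted p under 0.05 there were 13 higher and 10 lower (14.0% and 13.5% of all genes). The called shares were below those of all genes. TBL3 rose by 1.23 and POLR1G, an RNA polymerase I subunit, by 1.08 on the log2 scale (edgeR adjusted p = 0.0221 and 0.00307), while UTP6 and DCAF13, small subunit factors, fell by 0.83 and 0.63 (edgeR adjusted p = 0.0214 and 0.0387). POLR1G thus went against the direction of POLR1A, POLR1B and POLR1C. Between genotypes under WM1119, 2 of the 101 were called higher and 1 lower, where 4.64% and 3.92% of all genes were, so these shares too were below those of all genes. With an unadjusted p under 0.05 there were 7 higher and 10 lower (11.9% and 11.8% of all genes). NOC3L and the exosome nuclease DIS3 were called higher in R183W cells, at 0.76 and 0.55 (edgeR adjusted p = 0.0412 and 0.0362), and UTP6 lower again, at -1.004 (edgeR adjusted p = 0.0243). DIS3 was also among the genes called higher under vehicle. The 2 genotype comparisons share no library.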

How the data were processed

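RNA-seq was measured in 11 libraries of HEC50B cells. The authors deposited 1 table of expected counts per gene, estimated counts that need not be whole and that share out reads matching several genes. STAR, RSEM and hg19 are named, per the submitters' processing notes, without versions or roles. The labels give both polyA RNA and a ScriptSeq Gold kit, and whether counting used strand is not stated. For 15 of the 40 members, GENCODE release 29 places an exon of another gene on the opposite strand.

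Counts were rounded to whole numbers. Symbols, exon lengths and overlaps came from GENCODE release 29, by gene ID (51959 IDs matched, and the other 5777 held 1.01% of counts). GENCODE's build differs from that of the counts, so no coordinates were carried over. Promoters came from RefSeq.

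A single edgeR 4.0.16 quasi-likelihood fit in R 4.3.3 held 4 group means and all 11 libraries, with TMM scaling, filterByExpr and no replicate block, and gave a biological coefficient of variation of 19.6%. SE is the log2 difference over the square root of F. Tests were two-sided. DESeq2 1.42.0, limma 3.58.1 (voom), other scalings, no filter, fits of 2 groups, a replicate block and leaving out each library were alternatives. Counts of members without overlap and summed CPM were added after the data were seen. The code was tested on simulated data. Libraries of 2609922 to 6065149 counts limit precision for low genes, and floors cover counting error only.

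Members, roles and lists were chosen with earlier results of these data known, so no test over the list was made, and counts are set beside all genes tested. Values are given for called members (up to 6 in a direction), the 4 largest interactions, the most abundant member of each role and up to 2 called genes in each direction of the wider list. Other members named with values, as role partners, were chosen after their values were seen.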

Additional observations from a re-analysis of the deposited data

How the results depend on the processing

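No called member changed direction under any alternative run. The members' median log2 difference kept its sign under every scaling, test and left-out library. It also stayed within 0.137 of the main value, the pooled SD of the libraries' median member log2 CPM within groups. That limit is loose, being larger than the main median itself in all but the inhibitor comparison in R183W cells. What moved was the number called. With upper quartile factors 2 members were called higher between genotypes under vehicle. With no filter on low counts 0 were called lower in that comparison and 3 lower between genotypes under WM1119. DESeq2 called 4 lower with the inhibitor in R183W cells. Fits of only the groups compared called 8 lower with the inhibitor in R183W cells, 0 lower in WT cells and 2 lower between genotypes under vehicle. With library totals alone, 4 members were higher without overlap between genotypes under WM1119. Shares of all genes in each direction are not given for these runs, so the counts cannot be set beside them. The totals over all genes, given below, moved too with no filter, DESeq2 and fits of only the groups compared.

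Leaving out 1 library at a time gave 0 to 6 members called lower with the inhibitor in R183W cells, and in WT cells 0 to 4 lower and 0 to 1 higher. Between genotypes the counts were 1 to 4 higher and 0 to 3 lower under vehicle, and 0 to 3 higher and 0 to 3 lower under WM1119. Members without overlap numbered 3 to 7 higher with the inhibitor in R183W cells, and 1 to 3 higher and 9 to 15 lower in WT cells. Between genotypes they numbered 7 to 13 higher and 8 to 14 lower under vehicle, and 2 to 8 higher and 9 to 20 lower under WM1119. The highest counts under vehicle came without WT vehicle library 1, and those under WM1119 without WT WM1119 library 3. The number lower with the inhibitor in R183W cells stayed at or above its main value of 22. With fewer libraries, groups separate more easily for any gene. Without WT WM1119 library 3, the share of all genes lower between genotypes under WM1119 without overlap rose from 16.3% to 30.5%. The share higher rose from 18.5% to 31.2%. Shares of all genes in each direction are not given for the other fits, so these ranges cannot be called particular to the members. Totals of all genes called in either direction moved too. They ran from 247 to 1392 with the inhibitor in WT cells and from 965 to 3151 between genotypes under vehicle. They also moved in the comparisons that use R183W WM1119 libraries. The numbers of members called are therefore not results about the members alone. Where R183W WM1119 was left with 1 library, that library is assumed to vary like the other groups. The causes were not tested.

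Over all genes tested, 649 were called with the inhibitor in R183W cells, against 1110 with no filter, 975 with DESeq2, 2406 in a fit of these groups alone and 261 with the replicate block. In WT cells 680 were called, against 1287, 1086, 139 and 287. Between genotypes 1817 were called under vehicle and 1197 under WM1119, against 2929 and 319 in fits of those groups alone and 1189 and 678 with the block. The interaction had 40 calls, against 191 with no filter, 157 with DESeq2 and 0 with the block.

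With the replicate number as a block, 0 members were called lower with the inhibitor in either genotype, and 1 higher and 0 lower between genotypes under vehicle. Fewer of all genes were called in these comparisons too, as given above. RRP9 under vehicle (edgeR adjusted p = 0.0146) and NOP58 between genotypes under WM1119 (0.0227) kept their calls. The 9 calls lost had edgeR adjusted p of 0.0669 to 0.102. The 15 pairs that share a number had correlations of -0.391 to 0.137 in their deviations from the group means, and the 30 other pairs -0.163 to 0.405. These values gave no sign that the numbers pair the libraries. Deviations cancel out within groups this small, so the correlations depend on each other and cannot settle the question.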
